A study of Mus musculus with 70 samples.

Results

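The comparison described here sets microglia that carry 1 replaced Cx3cr1 allele and were never exposed to tamoxifen against wild-type microglia that were. It rests on 9 of the 70 libraries of the series, taken by their group labels. In 4 libraries, called oil Cre+ below, the pups were heterozygous for the Littman line of Cx3cr1CreERT2 and received vehicle and oil. In 5 libraries, called TAM Cre- below, the pups were Cx3cr1+/+ wild type and received vehicle and tamoxifen. The labels place pups of this study at postnatal day 8 or 14, with tamoxifen in corn oil at 0.1 mg on days 1 and 3 or 0.2 mg on days 5 and 7. Neither the age nor the schedule is given for a single sample, and the make-up of the vehicle is not stated per sample. No Cre- oil group was in the set, so the replaced allele, the Cre protein it encodes and the tamoxifen cannot be told apart in any difference below. The genotype labels of these groups name no floxed target or reporter allele.

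All libraries were made by CEL-Seq2, which primes on poly(A) tails and counts transcripts near their 3' ends with molecular identifiers. The input was 500 microglia per library, sorted as CD11b+ CD45+ Ly6G- CD206- cells from perfused brains. Another vehicle group of 4 Littman Cre+ libraries with tamoxifen (TAM Cre+) came from the same count table. A separate postnatal table held a pair of groups of like treatment, but from different lines. The labels do not state whether replicates came from different animals, so p-values measure the spread between these libraries, which may be technical.

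CX3CR1 is the receptor for the membrane-bound chemokine fractalkine (CX3CL1), which neurons make, and in the brain it is a leading marker of microglia. The Cx3cr1CreERT2 lines put a tamoxifen-dependent Cre recombinase in place of the receptor's coding sequence, so that the endogenous promoter drives Cre from 1 allele and the receptor from the other. Mice of such lines without tamoxifen, and Cre-negative mice with it, are the usual controls for work with the line.

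The endogenous Cx3cr1 promoter is shown because it is the stretch that both alleles of the oil Cre+ mice share ahead of the replaced part. The 250 bases before the RefSeq start of Cx3cr1 lie at chr9:120068297-120068546 on the minus strand of GRCm38.p6 (RefSeq), and capitals mark GGAA or its reverse complement TTCC, the core of the motif bound by ETS factors such as PU.1.
Cx3cr1: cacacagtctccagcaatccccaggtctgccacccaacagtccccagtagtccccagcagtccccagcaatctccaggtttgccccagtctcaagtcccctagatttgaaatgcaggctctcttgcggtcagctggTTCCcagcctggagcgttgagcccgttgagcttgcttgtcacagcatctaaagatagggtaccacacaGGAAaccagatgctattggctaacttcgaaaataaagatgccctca
The window lies inside the gene span of the GENCODE annotation, which reaches 120069879, so RefSeq and GENCODE place the start differently. It held 1 match on each strand. Of 32851 RefSeq promoter windows of the same length, 93.4% held at least 1 match on either strand, with a median of 3. A match of this kind is a description of the sequence and not a binding site.

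The oil Cre+ libraries held 137965 to 197693 counts and 9948 to 11107 detected genes, against 166548 to 223216 counts and 10591 to 11143 genes in the TAM Cre- libraries. Xist was detected in 3 of 4 oil Cre+ and 3 of 5 TAM Cre- libraries. Marker lists of other cell types were low in both groups, in CPM (counts scaled to the TMM-normalised total over the tested genes). Neutrophil markers summed to 0 CPM in every oil Cre+ library and to at most 6.93 CPM in TAM Cre- libraries. Monocyte markers summed to 7.92 to 35.0 CPM in oil Cre+ against 5.28 to 34.1 CPM in TAM Cre- libraries. The border macrophage markers summed to 407 to 490 CPM in oil Cre+ and 427 to 644 CPM in TAM Cre- libraries, most of it from Mrc1, which encodes CD206. Erythroid markers stood out in 1 TAM Cre- library, where they reached 483 CPM, against at most 15.8 CPM in oil Cre+ libraries. Over 1796 genes at 100 CPM or more, an oil Cre+ library correlated with its own group at a mean Pearson's r of 0.917 to 0.929 and with the TAM Cre- libraries at 0.907 to 0.929. The TAM Cre- libraries correlated with each other at 0.925 to 0.937 and with the oil Cre+ libraries at 0.908 to 0.926.

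The transcriptomes of the groups lay close together, and Cx3cr1 was the only protein-coding gene that DESeq2 or limma-voom called. Cx3cr1 measured 1517, 1492, 1581 and 1767 CPM in the oil Cre+ libraries, against 3158, 2719, 2911, 3148 and 2925 CPM in the TAM Cre- libraries. Every oil Cre+ library was below every TAM Cre- library, and the gap was wider than the spread in either group. The means were 1589 ± 124 CPM in oil Cre+ (SD, n = 4) and 2972 ± 184 CPM in TAM Cre- (SD, n = 5), a pooled-count ratio of 0.534 (exact 95% interval 0.495 to 0.576, counting error only). The exact two-sided permutation test of the means gave p = 0.00794, the smallest that the 126 splits of 4 and 5 libraries allow. The gene (ENSMUSG00000052336) spans chr9:119901616-120069879 on the minus strand of GRCm38.

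In edgeR's quasi-likelihood fit of all 5 groups of the table, the log2 fold change of Cx3cr1 was -0.90 ± 0.211 (SE, 95% interval -1.33 to -0.48), with an unadjusted p of 0.000131. After Benjamini-Hochberg adjustment over all 4953 tested genes the adjusted p was 0.163, so Cx3cr1 was not called. Cx3cr1 varied more in some other groups of that fit, such as the 5 UC2288-treated TAM Cre+ libraries at 741 to 2047 CPM. When edgeR was fitted to the 9 libraries alone the SE was 0.112 and the adjusted p 6.47e-05. DESeq2, on the same genes and the same 21 libraries as the main fit, gave an adjusted p of 0.0135 and limma-voom 0.0404. Why the adjusted p differed between these fits was not tested. Over all alternatives the log2 fold change stayed between -0.98 and -0.88, and the adjusted p ranged from 6.47e-05 to 1.

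Within the vehicle groups the order of Cx3cr1 levels was TAM Cre+, oil Cre+ and then TAM Cre-. The TAM Cre+ libraries averaged 1026 ± 133 CPM (SD, n = 4), and the highest of them reached 1146 CPM, below the lowest oil Cre+ library at 1492 CPM. Against the oil Cre+ libraries the log2 fold change of TAM Cre+ was -0.63, with an edgeR adjusted p of 0.0278. Against the TAM Cre- libraries it was -1.53, with an edgeR adjusted p of 1.48e-06. The comparisons share libraries and are given side by side.

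A pair of groups with no library in common came from the postnatal table. It held 5 libraries of the Jung line, a separately made Cx3cr1CreERT2 allele, carried with 1 Rosa26YFP reporter allele and given oil. Against them stood 5 Cx3cr1+/+ libraries given tamoxifen, which are labelled Littman and not Jung. The allele, the reporter, the line and the tamoxifen cannot be told apart there either. Cx3cr1 measured 2342, 2379, 2108, 2208 and 2170.1 CPM in the Jung oil libraries, against 3939, 4065, 4154, 4098 and 4098 CPM in the Cre- libraries. Here too the groups were apart. The log2 fold change was -0.86 ± 0.0692 (SE), with an edgeR adjusted p of 1.17e-12, and it lay inside the interval found for the vehicle groups. The 2 tables were normalised separately, so CPM values are not compared across them.

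**Figure D1:**
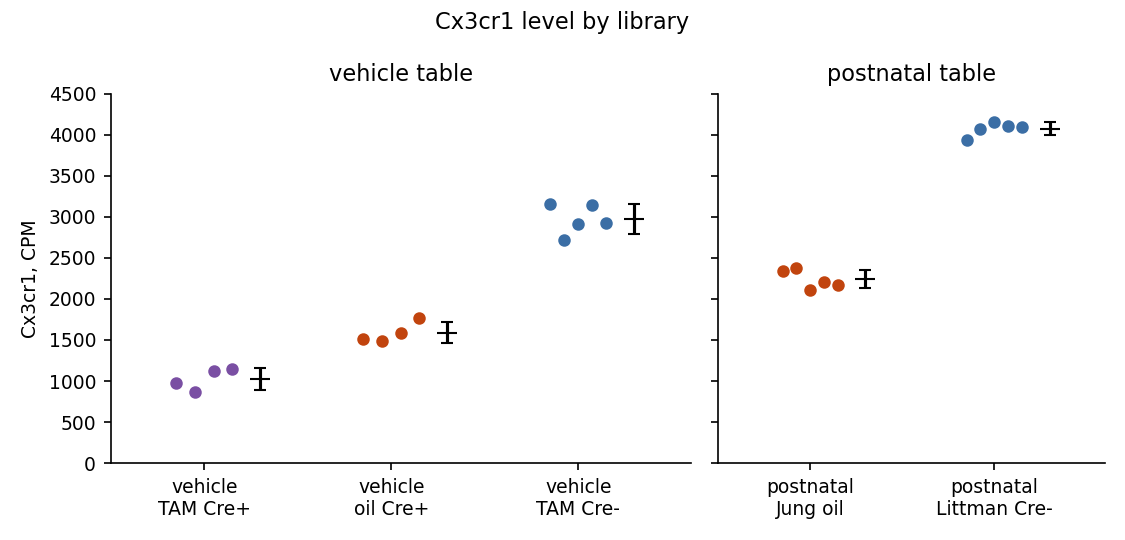
Cx3cr1 in CPM (linear axis from 0) for each library of the 3 vehicle groups (left) and of the Jung oil and Cre- groups of the postnatal table (right). Points are libraries and bars are the mean ± SD; the oil Cre+ libraries lie between 1492 and 1767 CPM, all below the TAM Cre- libraries at 2719 to 3158 CPM and above the TAM Cre+ libraries.

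No gene passed an adjusted p below 0.05 in edgeR's quasi-likelihood test of oil Cre+ against TAM Cre- (0 of 4953, 0%). At an unadjusted p below 0.05 there were 290 genes (5.86%), of which 141 (2.85%) were higher and 149 (3.01%) lower in oil Cre+. DESeq2 called 3 genes and limma-voom 3 genes. These were the same 3 in both tools, namely Cx3cr1, the mitochondrial ribosomal RNA mt-Rnr2 and the nuclear ribosomal RNA CT010467.1, all lower in oil Cre+. In 71 genes (1.43%) every oil Cre+ library was above every TAM Cre- library, and in another 71 (1.43%) every one was below.

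The count of 0 can be read against the precision of the libraries. The median log2 fold change over tested genes was 0.02, with quartiles at -0.24 and 0.25. The 95% interval of the log2 fold change lay within -1 and 1, which is within a 2-fold change either way, for 2624 of the 4953 genes. By the mean of the higher group, the share was 93.0% for the 316 genes at 500 CPM or more. It was 80.6% for the 1598 genes from 100 to 500 CPM and 47.7% for the 1880 genes from 50 to 100 CPM. It was 12.6% for the 1159 genes below 50 CPM, and for most of these the interval did not exclude a 2-fold change. The edgeR interval lay wholly beyond a 2-fold change for 3 genes, Golm1, Cyp51 and Ifih1, each with few counts in 1 of the groups. Ifih1 had 0 counts in oil Cre+. Its exact pooled-count ratio had an upper 95% limit of 0.505, which does not exclude a change just under 2-fold. In the same fit, TAM Cre+ against TAM Cre- gave 1347 called genes (27.2%) and TAM Cre+ against oil Cre+ gave 1556 (31.4%).

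**Figure D2:**
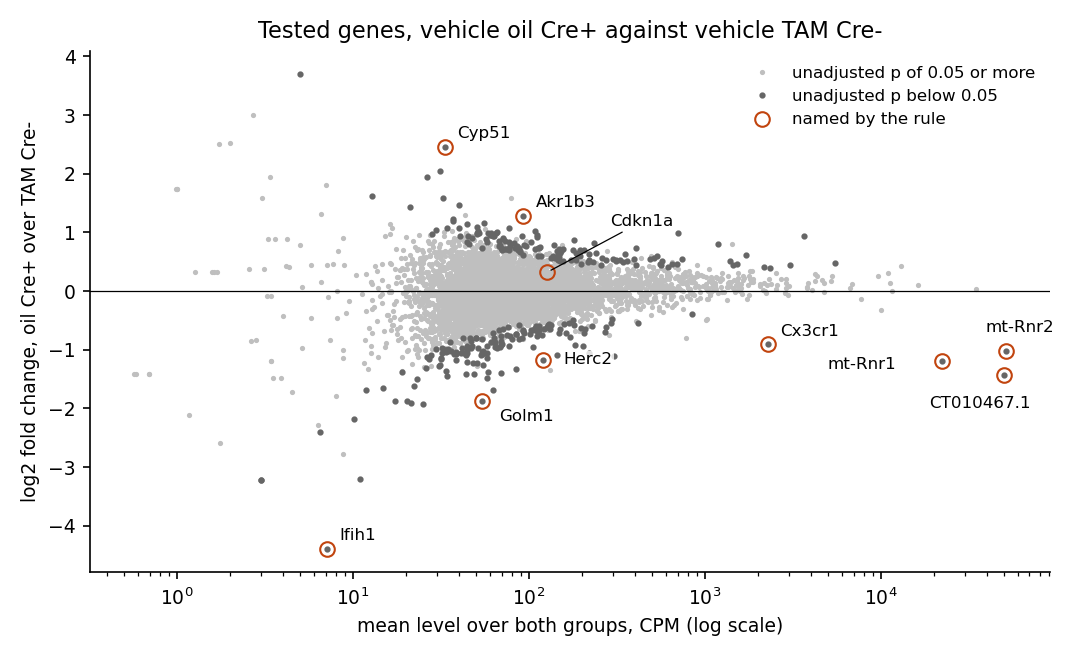
Log2 fold change of oil Cre+ over TAM Cre- (vertical axis) against the mean level over both groups in CPM (log axis) for each tested gene with counts. Dark points have an unadjusted p below 0.05 and rings mark 10 genes named by rule; Cx3cr1 and the 3 ribosomal RNAs lie below the cloud of genes of like level.

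The 10 genes with the smallest unadjusted p, called or not, included Cx3cr1, 3 ribosomal RNAs and the nuclear genes Golm1, Herc2, Cyp51, Akr1b3 and Ifih1. Among the ribosomal RNAs, CT010467.1 (chr17:39846353-39848827) averaged 27163 CPM in oil Cre+ and 73191 CPM in TAM Cre- libraries, a log2 fold change of -1.43 ± 0.280 (SE) with an edgeR adjusted p of 0.0553. Its highest oil Cre+ library, at 37499 CPM, was below its lowest TAM Cre- library, at 43714 CPM. The large mitochondrial ribosomal RNA, mt-Rnr2, had a log2 fold change of -1.02 (edgeR adjusted p = 0.127) without overlap of the groups, and the small one, mt-Rnr1, of -1.18 (edgeR adjusted p = 0.393) with overlap. In shares of all counts, nuclear ribosomal RNA took 1.63% to 3.35% of an oil Cre+ library and 4.05% to 7.93% of a TAM Cre- library. Mitochondrial ribosomal RNA took 2.89% to 6.30% against 5.76% to 10.1%. The oil Cre+ libraries lowest in both were also the shallowest, replicates 2 and 4, and the part of these shares in other results was tested only by leaving the ribosomal RNA genes out. Without them the count of called genes was again 0, and the log2 fold change of Cx3cr1 was -0.93.

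CT010467.1 took far fewer counts in the postnatal pair and measured 505 ± 72.2 CPM in Jung oil and 535 ± 307 CPM in Cre- libraries (SD, n = 5 each). There mt-Rnr2 was called lower in Jung oil, at a log2 fold change of -0.27 (edgeR adjusted p = 0.0346), and so was mt-Rnr1 at -0.37 (edgeR adjusted p = 0.0270).

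**Figure D3:**
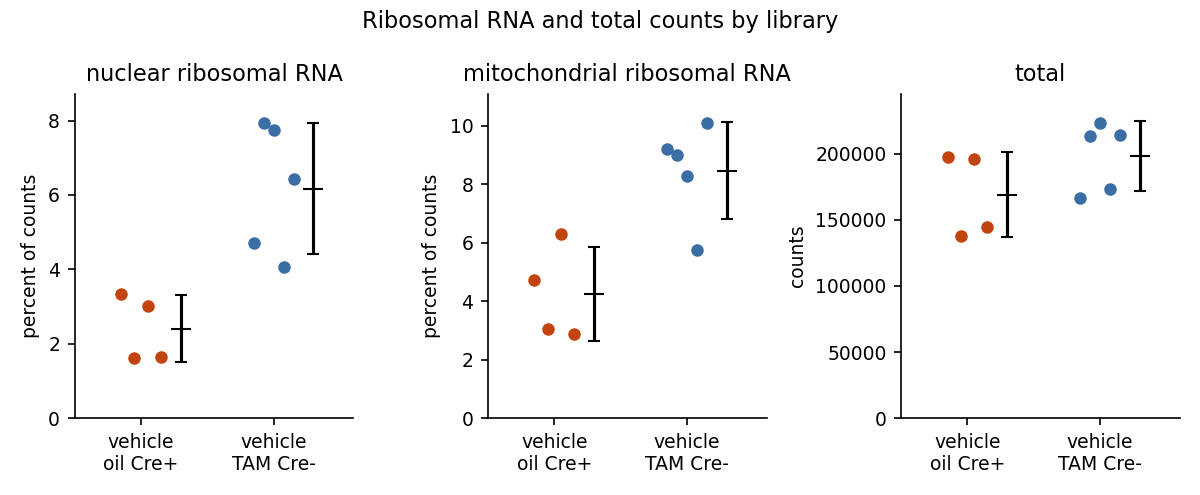
Nuclear ribosomal RNA (left) and mitochondrial ribosomal RNA (middle) as a percent of all counts, and total counts (right), for each oil Cre+ and TAM Cre- library. Points are libraries and bars are the mean ± SD; the nuclear ribosomal RNA shares of the groups do not overlap, at 1.63% to 3.35% in oil Cre+ and 4.05% to 7.93% in TAM Cre- libraries.

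Of these 5 nuclear genes, Golm1 had the smallest p. It encodes a Golgi membrane protein and is listed among the genes of resting microglia. Golm1 measured 34.0, 0, 29.2 and 23.8 CPM in oil Cre+ libraries, against 97.0, 79.6, 68.7, 106 and 81.4 CPM in TAM Cre- libraries. Every oil Cre+ library was below every TAM Cre- library, and 1 had no Golm1 count. The pooled counts were 14 in oil Cre+ and 72 in TAM Cre-, and the log2 fold change was -1.86 ± 0.417 (SE, edgeR adjusted p = 0.127). In the TAM Cre+ libraries Golm1 averaged 76.2 ± 16.6 CPM (SD, n = 4). The postnatal pair gave 128 ± 15.4 CPM in Jung oil and 124 ± 12.6 CPM in Cre- libraries (SD, n = 5 each), a log2 fold change of 0.05 (95% interval -0.24 to 0.33).

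Herc2, a ubiquitin ligase of the DNA damage response, averaged 74.2 ± 15.1 CPM in oil Cre+ and 166 ± 58.8 CPM in TAM Cre- libraries (SD, n = 4 and 5). Its highest oil Cre+ library, at 95.1 CPM, was just under its lowest TAM Cre- library, at 98.9 CPM. The log2 fold change of Herc2 was -1.17 (edgeR adjusted p = 0.171).

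Cyp51, the lanosterol demethylase of cholesterol synthesis, measured 50.9, 95.7, 11.7 and 71.3 CPM in oil Cre+ libraries, against 0, 5.69, 21.1, 6.22 and 11.6 CPM in TAM Cre- libraries. It was high in 3 of the 4 oil Cre+ libraries, and replicate 3 lay within the TAM Cre- range. The pooled counts were 32 in oil Cre+ and 8 in TAM Cre-, and the log2 fold change was 2.46 (95% interval 1.20 to 3.73, edgeR adjusted p = 0.286). Without oil Cre+ replicate 3, the library that went against the difference, it was 2.83 (edgeR adjusted p = 0.0356). That fit is therefore no support for the difference. Cyp51 passed the filter on low counts in 7 of the 9 fits without 1 library, and of these only that 1 called it. With no filter on low counts and all libraries kept, Cyp51 was called too (2.41, edgeR adjusted p = 0.0437). Akr1b3, aldose reductase, measured 96.2, 95.7, 117 and 222 CPM in oil Cre+ against 34.6, 51.2, 74.0, 31.1 and 69.8 CPM in TAM Cre- libraries. The oil Cre+ libraries were all higher, and replicate 4 was well above the other oil Cre+ libraries. Its log2 fold change was 1.29 ± 0.330 (SE, edgeR adjusted p = 0.286).

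Ifih1, which encodes the cytosolic RNA sensor MDA5, had 0 counts in all 4 oil Cre+ libraries and 12 counts over the TAM Cre- libraries, where it measured 6.93 to 18.7 CPM. The ratio of pooled counts, oil Cre+ over TAM Cre-, had an exact 95% upper limit of 0.505, which covers counting error only, and the edgeR adjusted p was 0.399. In TAM Cre+ libraries it averaged 131 ± 18.2 CPM (SD, n = 4), and Ifih1 passed the filter on low counts through such other groups of the table. The log2 fold changes of these genes in the postnatal pair were -0.11 for Herc2, -0.67 for Cyp51, -0.43 for Akr1b3 and -0.42 for Ifih1. None of these 4 was called there by edgeR, which called 56 of 7076 tested genes (0.791%), and the differences of Cyp51 and Akr1b3 had the opposite sign.

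**Figure D4:**
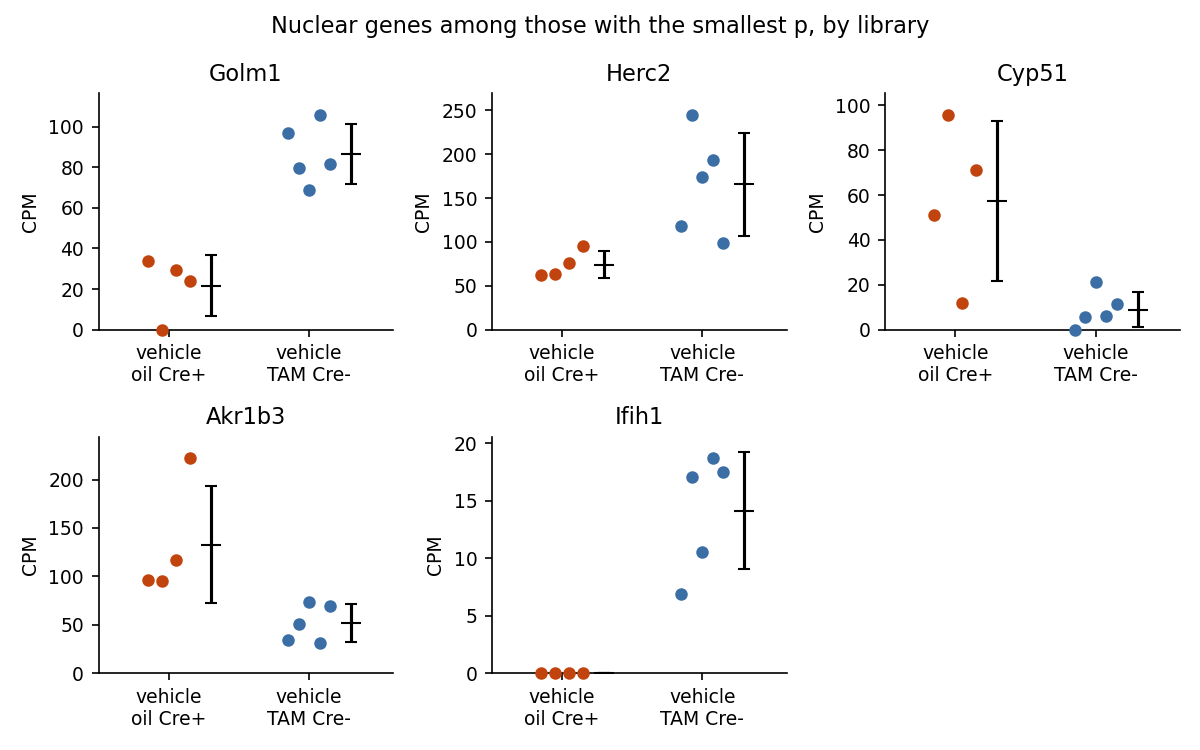
CPM of 5 nuclear genes for each oil Cre+ library (left in each panel) and TAM Cre- library (right), linear axes from 0. Points are libraries and bars are the mean ± SD; Golm1, Herc2 and Ifih1 are lower in every oil Cre+ library and Akr1b3 higher in every one, while the groups overlap for Cyp51.

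Cdkn1a encodes p21, the cyclin-dependent kinase inhibitor that p53 induces and the stated target of the study's inhibitor UC2288. Cdkn1a measured 147, 199, 163 and 55.5 CPM in oil Cre+ libraries, against 69.3, 165, 79.2, 118 and 134 CPM in TAM Cre- libraries. The groups overlapped throughout, and replicate 4 of oil Cre+ was the lowest of all. The log2 fold change was 0.32, with a 95% interval of -0.31 to 0.96 and an edgeR adjusted p of 0.924. The TAM Cre+ libraries averaged 826 ± 177 CPM (SD, n = 4), a log2 fold change of 2.54 over oil Cre+ (edgeR adjusted p = 3.20e-08) and of 2.86 over TAM Cre- (edgeR adjusted p = 3.72e-10).

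No member of any gene list was called in oil Cre+ against TAM Cre-, so each list is described by its counts and its median, beside a median of 0.02 and 51.9% positive values over all tested genes. Members are named below where their unadjusted p was below 0.05, and beyond the genes above they were chosen after their values were seen. All 33 homeostatic microglia genes, the markers of the resting state, were detected and tested. In 29 of them the log2 fold change was positive and in 4 negative, with a median of 0.22. The 316 genes at 500 CPM or more, among which many homeostatic genes fall, had a median of 0.12 and a lower quartile of 0.01, so most of them were positive. The purinergic receptor P2ry12 averaged 4687 ± 258 CPM in oil Cre+ and 3811 ± 515 CPM in TAM Cre- libraries (SD, n = 4 and 5), a log2 fold change of 0.30 with a 95% interval of -0.33 to 0.93. For the membrane marker Tmem119 the interval was -0.17 to 0.66, and for the growth factor receptor Csf1r it was -0.18 to 0.53.

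Homeostatic genes with an unadjusted p below 0.05 included, beside Cx3cr1 and Golm1, Selplg, Sall1 and Adgrg1. Selplg, the P-selectin ligand, measured 1336, 1603, 1301 and 1774 CPM in oil Cre+ against 693, 1024, 687, 865 and 1053 CPM in TAM Cre- libraries. The groups did not overlap, and the log2 fold change was 0.80 ± 0.228 (SE, edgeR adjusted p = 0.588, and 0.0245 when the 9 libraries were fitted alone). The postnatal pair gave 0.28 (edgeR adjusted p = 0.0963), with 4361 ± 105 CPM in Jung oil and 3587 ± 293 CPM in Cre- libraries. Adgrg1, an adhesion receptor, averaged 255 ± 36.7 CPM in oil Cre+ and 156 ± 20.2 CPM in TAM Cre- libraries without overlap. Replicate 4 of oil Cre+ stood apart in mt-Co1, a mitochondrially encoded respiratory chain subunit, with 10053 CPM against 2604 to 3529 CPM in the other oil Cre+ libraries and 1649.8 to 3204 CPM in TAM Cre-. Sall1, a transcription factor of microglial identity, averaged 369 ± 124 CPM in oil Cre+ and 256 ± 51.2 CPM in TAM Cre- libraries, and the groups overlapped.

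The receptor's partners were also measured. Its ligand gene Cx3cl1 had counts in 1 of the 9 libraries, an oil Cre+ one at 11.3 CPM. Of 19 tested genes of the ligand, chemokine receptor and signalling list, Cx3cr1 included, 14 had a positive and 5 a negative log2 fold change, with a median of 0.11. Gnai2, the inhibitory G protein subunit through which chemokine receptors signal, averaged 1478 CPM in oil Cre+ and 1487 CPM in TAM Cre- libraries, with a 95% interval of the log2 fold change of -0.35 to 0.33. C3ar1, the receptor for the complement fragment C3a, averaged 342 ± 54.5 CPM in oil Cre+ and 497 ± 77.0 CPM in TAM Cre- libraries (log2 fold change -0.54, edgeR adjusted p = 0.797), with overlap.

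Genes that lie beside Cx3cr1 on chromosome 9 are inherited together with the knock-in allele. Within 2 Mb on either side, 133 genes are annotated and 12 besides Cx3cr1 were tested. None was called by edgeR. An unadjusted p below 0.05 was found for 2 of the 12, beside 5.86% of all tested genes. Both were higher in oil Cre+, beside 2.85% of all tested genes. Myd88, the adaptor of Toll-like receptors, had a log2 fold change of 1.08 ± 0.394 (SE, edgeR adjusted p = 0.773). Ctnnb1, beta-catenin, had 0.95 ± 0.426 (SE, edgeR adjusted p = 0.806). Myd88 measured 90.6, 31.9, 46.7 and 47.5 CPM in oil Cre+ against 20.8, 34.1, 15.8, 31.1 and 29.1 CPM in TAM Cre- libraries, with overlap. Their log2 fold changes in the postnatal pair were 0.01 for Myd88 and 0.58 for Ctnnb1. In that pair 21 genes of the window besides Cx3cr1 were tested and 1 was called by edgeR, lower in Jung oil. It was Gm33858 (log2 fold change -1.79, edgeR adjusted p = 0.00109), an antisense gene that overlaps Cx3cr1 and may share counts with it. In the vehicle pair Gm33858 had the opposite sign, at 0.70 ± 0.554 (SE, edgeR adjusted p = 0.906), and was not called. It averaged 45.7 CPM in oil Cre+ and 27.9 CPM in TAM Cre- libraries, while the log2 fold change of Cx3cr1 was -0.90. Whether these genes share counts was not tested.

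The list of inflammatory cytokines and NF-kB genes had 9 negative values among 10 tested members and a median log2 fold change of -0.42. Ccl3, a chemokine that microglia release on activation, measured 39.6, 31.9, 17.5 and 31.7 CPM in oil Cre+ against 97.0, 114, 47.5, 118 and 52.3 CPM in TAM Cre- libraries. The groups did not overlap, and the log2 fold change was -1.48 ± 0.463 (SE, edgeR adjusted p = 0.768). The related chemokine Ccl4 averaged 24.8 ± 22.7 CPM in oil Cre+ and 72.1 ± 38.9 CPM in TAM Cre- libraries, and the cytokine Tnf 7.43 ± 6.60 CPM and 27.4 ± 28.5 CPM, both with overlap. Il1a, another early cytokine of activated microglia, had the only positive value, at 0.39. Genes of the immediate early and dissociation list, which handling of the tissue is known to induce, had 3 positive and 7 negative values among 10 tested. Their median was -0.12, and the values ran from -1.08 to 1.07. Their members Zfp36 and Jund had log2 fold changes of -1.08 and -0.61 (edgeR adjusted p = 0.806 for both). The sum of that list was 903 to 1015 CPM in oil Cre+ and 1018 to 1325 CPM in TAM Cre- libraries, and its part in the cytokine values was not tested. Ccl3 in the postnatal pair averaged 23.4 ± 8.57 CPM in Jung oil and 19.3 ± 17.4 CPM in Cre- libraries (SD, n = 5 each).

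The type I interferon list had 39 tested members, of which 18 had positive and 18 negative values and 3 had no counts in either group, with a median of 0. The filter on low counts also used the other groups of the table, and 20 of the 39 had 10 or more counts summed over oil Cre+ and TAM Cre-. Of these 20, 9 had positive and 11 negative values, with a median of -0.01. Usp18, an interferon-induced protease, had 0 counts in oil Cre+ and 5 in TAM Cre-, and the exact 95% upper limit of the oil Cre+ over TAM Cre- ratio was 1.53, so these counts fix no direction. Of 18 tested MHC class I and antigen presentation genes, 12 had positive values, with a median of 0.06. Among the 15 of them with 10 or more such counts, 11 had positive and 4 negative values, with a median of 0.10. B2m, the light chain of MHC class I, averaged 4939 ± 448 CPM in oil Cre+ and 4509 ± 558 CPM in TAM Cre- libraries, with a 95% interval of the log2 fold change of -0.32 to 0.58.

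Of 10 tested p53 targets and DNA damage response genes, 6 had positive and 4 negative values. Mdm2, the ubiquitin ligase that restrains p53, measured 22.6, 16.0, 23.3 and 15.8 CPM in oil Cre+ against 27.7, 51.2, 74.0, 31.1 and 34.9 CPM in TAM Cre- libraries, without overlap (log2 fold change -1.14, edgeR adjusted p = 0.797). In the postnatal pair its log2 fold change was -0.01. The 29 tested cell cycle genes split into 14 positive and 15 negative values, with a median of -0.02 and none at an unadjusted p below 0.05. The proliferation marker Mki67 averaged 283 ± 116 CPM in oil Cre+ and 359 ± 105 CPM in TAM Cre- libraries, with overlap. In the postnatal pair 5 of 28 tested cell cycle genes were called lower in Jung oil by edgeR, beside 0.537% of all tested genes, and the median was -0.90.

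Genes of disease-associated microglia had 16 positive and 5 negative values among 21 tested, with a median of 0.14. The lipid carrier Apoe measured 6769.6, 6158, 5799 and 6670.2 CPM in oil Cre+ against 4059, 5336, 4897, 4025 and 4489.8 CPM in TAM Cre- libraries. The groups did not overlap, and the log2 fold change was 0.48 ± 0.215 (SE, edgeR adjusted p = 0.806). Lysozyme, Lyz2, averaged 469 ± 55.3 CPM in oil Cre+ and 348 ± 57.2 CPM in TAM Cre-, and the protease Ctsl 2655 ± 242 CPM and 2018 ± 177 CPM. In the postnatal pair Apoe and Lyz2 were called lower: Apoe averaged 2104 ± 265 CPM in Jung oil and 3333 ± 692 CPM in Cre- libraries (log2 fold change -0.66, edgeR adjusted p = 0.000104), and Lyz2 115 ± 11.1 CPM and 206 ± 65.2 CPM (-0.85, edgeR adjusted p = 0.00314). Of 25 lysosome and lipid handling genes, 21 had positive values, with a median of 0.15. For members as high as Apoe and Ctsl, the closer background is the 316 genes at 500 CPM or more. Their median was 0.12 and their lower quartile 0.01, so most of them were positive too. Of 11 tested sterol synthesis and uptake genes, 7 had positive values, and Cyp51 alone had an unadjusted p below 0.05. Hmgcs1, an earlier enzyme of that pathway, averaged 78.9 CPM in oil Cre+ and 48.2 CPM in TAM Cre-, a log2 fold change of 0.67 with a 95% interval of -0.10 to 1.43.

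**Figure D5:**
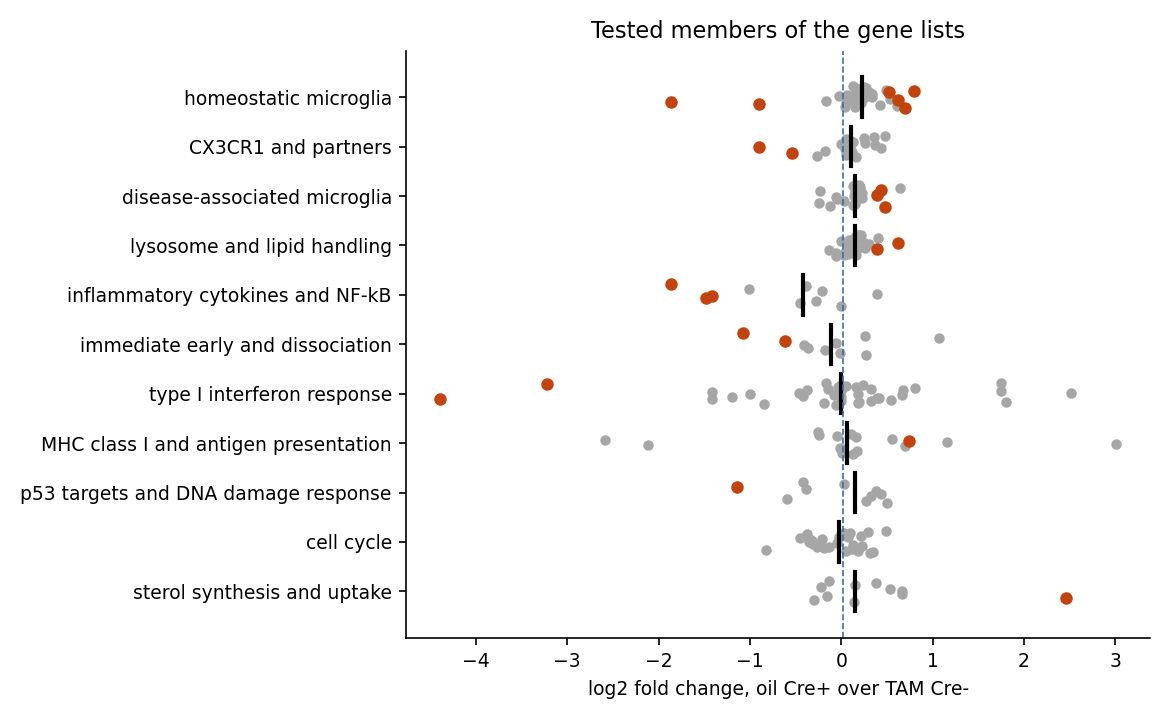
Log2 fold change of oil Cre+ over TAM Cre- for each tested member of 11 gene lists. Points are genes, red where the unadjusted p is below 0.05; black bars are list medians and the dashed line is the median of all tested genes at 0.02, and the inflammatory list has the lowest median, at -0.42.

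The genes that edgeR called in the postnatal pair were also looked up in the vehicle pair. Among the 56, 18 were higher (0.254%) and 38 lower (0.537%) in Jung oil. Of these, 49 were tested in the vehicle table, and 24 had the same sign there. Those with the same sign and an unadjusted p below 0.05 in the vehicle groups were Cx3cr1, mt-Rnr2, mt-Rnr1, Lsp1 and Atrx. All were lower in the group with a replaced allele and oil than in the wild-type group with tamoxifen. The leukocyte actin-binding protein gene Lsp1 had log2 fold changes of -1.08 in the vehicle and -1.17 in the postnatal pair, and the chromatin remodeller Atrx of -0.54 and -0.43. Opposite signs at an unadjusted p below 0.05 were found for Apoe, Lyz2 and G530011O06Rik. Over all genes tested in the vehicle pair, 5.86% had an unadjusted p below 0.05 in edgeR. Over the 4648 genes tested in both tables, the log2 fold changes correlated at a Pearson's r of 0.051 and a Spearman's rho of 0.057, and 52.1% had the same sign. This is a description across genes, which are not independent replicates.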

How the data were processed

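The authors deposited raw counts, whole numbers per gene for each library, with no scaling. The tools featureCounts, HISAT2, Trim Galore and UMI-tools are listed, with the build GRCm38, in the submitters' processing notes. Tool versions, the annotation used and the handling of strand are not stated there, so overlapping, antisense and near-identical genes may share counts. The table of 21 vehicle and UC2288 libraries in 5 groups was fitted with edgeR 4.0.16 in R 4.3.3 (TMM, filterByExpr by group, a single quasi-likelihood fit, p adjusted by Benjamini-Hochberg over 4953 tested of 20722 genes, call at adjusted p below 0.05). The postnatal table of 19 libraries in 4 groups was fitted likewise. At totals of 137965 to 223216 counts, a gene below 50 CPM has few counts per library. SE is the log2 fold change over the root of the F statistic. Permutation tests were exact and two-sided. Coordinates are from GENCODE, promoter sequence from RefSeq. The fit was tested on simulated data.

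Named genes were Cx3cr1, Cdkn1a, called genes by size, and the 10 genes with the smallest p; 1 of these and some list members are not reported here. The groups, the 25 gene lists and the rules were chosen with earlier results of these data known. Alternatives were DESeq2 1.42.0, limma-voom (limma 3.58.1), other size factors, no filter, the 9 libraries alone, a replicate block, Xist as covariate and leaving libraries out.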

Additional observations from a re-analysis of the deposited data

Results flagged for a closer look

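Akr1b3 in replicate 4 of the oil Cre+ group, at 222 CPM, stood far from the other 3 libraries of its group, which measured 95.7 to 117 CPM, and above the TAM Cre- libraries at 31.1 to 74.0 CPM. A gap of this kind is found by chance in about 1 in 20 groups, and the 11 genes taken by rule were looked at in both groups. The same library was the highest of all 9 for mt-Co1.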

How the results depend on the processing

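The log2 fold change of Cx3cr1 kept its direction under all 20 alternatives. It was called with DESeq2 (-0.91), limma-voom (-0.90), no filter on low counts (-0.94), the 9 libraries fitted alone (-0.94) and the replicate block in those 9 libraries (-0.95), and without 1 library each it ranged from -0.96 to -0.88 and was not called. The count of called genes was 3 with DESeq2, 3 with limma-voom, 1 with RLE size factors, 1 with upper-quartile size factors, 15 of 20544 with no filter and 4 with the 9 libraries alone; the cause was not tested. Leaving out 1 library gave 0 to 5 calls: 5 without oil Cre+ replicate 3 (3 ribosomal RNAs, Lars2 and Cyp51), 2 without TAM Cre- replicate 4, and 1 each without oil Cre+ replicate 1 or TAM Cre- replicate 1. Among the 15 were Golm1 (-1.90, edgeR adjusted p = 0.0219) and Cyp51 (2.41, edgeR adjusted p = 0.0437). Hba-a1 was also among them, with 26 of its 27 counts in 1 TAM Cre- library. CT010467.1 was called in 11 of 18 alternatives. No named gene changed sign where it was tested, and Cyp51 was tested in 14 of the 20 alternatives. Same-numbered replicates did not deviate together (correlations of 0.113, -0.031, -0.013 and 0.096), so the numbers were not taken as pairs; with the replicate block, fitted to the 9 libraries alone, 10 genes were called against 4 in those libraries without it, and Herc2 was among the 10 (-1.31, edgeR adjusted p = 0.0329). Of the alternatives chosen after seeing the data, ribosomal RNA genes left out, with or without oil Cre+ replicate 4, and oil Cre+ replicates 2 and 4 left out, each gave 0. In the postnatal pair 145 genes were called with no filter and 35 with DESeq2.

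Depth limits the low genes most, and intervals and bounds from pooled counts cover counting error only. In bulk libraries of sorted cells, fewer cells with a transcript and less of it per cell cannot be told apart. The replaced allele, Cre and tamoxifen cannot be told apart without a Cre- oil group.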

Other observations

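Dab2, an endocytic adaptor of early postnatal microglia, measured 142, 152, 128 and 79.2 CPM in oil Cre+ libraries, against 229, 228, 174, 255 and 198 CPM in TAM Cre- libraries. The groups did not overlap, the log2 fold change was -0.77 ± 0.243 (SE, edgeR adjusted p = 0.768), and in the postnatal pair it was -0.10. Of the 8 tested early postnatal genes, 4 had positive and 4 negative values. Of 13 tested TGF-beta signalling genes, 9 had positive values, with a median log2 fold change of 0.12 and none at an unadjusted p below 0.05. H2-T23, a nonclassical MHC class I gene, averaged 104 ± 15.2 CPM in oil Cre+ and 61.7 ± 21.8 CPM in TAM Cre- libraries (SD, n = 4 and 5), with overlap.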
